A study of Mus musculus with 4 samples.

Results

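SR splicing factor genes encode serine- and arginine-rich proteins that direct pre-mRNA splicing. The set comprised 9 genes chosen by name with earlier results of these data known (Srsf1, Srsf2, Srsf3, Srsf4, Srsf5, Srsf6, Srsf7, Srsf10 and Srsf11) out of 21887 protein-coding genes on assembled mouse chromosomes. A peak was counted for a gene when any base of it lay inside the gene or within 5 kb of its GRCm38 boundaries. The assay was ChIP-seq for RNA polymerase II (Pol II), which recovers crosslinked chromatin with an antibody and sequences it, in primary mouse osteoblasts of the developmental stage labelled young. Stem cells grown from pieces of bone had been turned into osteoblasts by 3 days of osteogenic medium. Of the 4 samples, 1 Pol II library came from cells titled WT with no treatment named in the title, 1 from cells treated with OSS_128167, an inhibitor of the chromatin deacylase SIRT6, and each had an input library, which was not analysed here as a sample of its own. The group called untreated is known from the titles alone, since the treatment protocol names OSS_128167 for all 4 samples, and only the untreated titles name WT. The deposited list of the OSS_128167 sample is named for SIRT6, and the reason for this name is not given in the sources used here. The labels do not say how many animals gave cells to a library.

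Neither condition was replicated, so the conditions could not be tested against each other, and the lists describe 2 libraries. The untreated list held 1694 peaks and the OSS_128167 list 40748, of which 109 and 6568 had a false discovery rate (FDR) of at most 0.05 as deposited, called the FDR limit here. Sequencing depth is unknown, because the lists hold no read totals. Among 9 osteoblast markers, 6 had a peak inside or within 5 kb in the OSS_128167 list and 5 had one within the FDR limit, while Alpl, Bglap and Ibsp had none. Over all peaks 3 of 5 macrophage, 3 of 4 endothelial, 1 of 4 adipocyte, 2 of 4 chondrocyte and 2 of 4 neuron markers had a peak, where 46.7% of protein-coding genes had one. Within the FDR limit these counts were 2, 0, 0, 1 and 1, against 15.6% of protein-coding genes. In the untreated list 2 of 9 osteoblast, 1 of 4 adipocyte and 1 of 4 chondrocyte markers had a peak, against 2.71% of protein-coding genes. No marker of the other types had one there, and none of any type did within the FDR limit, against 0.142%. A peak list of bulk cells cannot tell Pol II in more cells from more Pol II per cell.

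SR proteins bind short exonic sequences through RNA recognition motifs and use their arginine-serine domains to recruit the spliceosome to nearby splice sites. Kinases of the SRPK and CLK families phosphorylate these domains, which controls entry into the nucleus and release from nuclear speckles. Most SR genes regulate their own output by alternative splicing of exons that send the transcript to decay. Pol II continues past the site where a transcript is cleaved and polyadenylated before it leaves the DNA, so occupancy beyond an annotated gene end is a usual feature of transcribed genes.

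All 9 SR genes had peaks in the OSS_128167 list, which covered 17444 bp past the gene ends (in 5 kb windows), 16140 bp inside the genes and 173 bp upstream. Other annotated genes hold 5655 bp of the downstream bases, 968 bp of those inside and 73 bp of those upstream. Outside such genes the order of the first 2 turned, with 11789 bp downstream, 15172 bp inside and 100 bp upstream. The OSS_128167 list held 42 peaks at them (2 to 9 per gene), against 1 peak in the untreated list. The 9 of 9 genes with a peak (100%, exact 95% interval 66.4 to 100) compare with 46.7% of all protein-coding genes, and with 39.2% of those in the length range of the SR genes (3779 to 28196 bp). Within the FDR limit 8 of 9 genes, all but Srsf4, had a peak (88.9%, 51.8 to 99.7), where 15.6% of protein-coding genes had one. In the untreated list 1 of 9 had a peak (11.1%, 0.281 to 48.2), against 2.71%, and 0 of 9 had one within it, against 0.142%. These intervals, and those given below, cover the counting of genes only, and the counts depend on which genes form the set. They do not allow for the choice of the genes with earlier results known. With Srsf9 and Srsf12, the other protein-coding Srsf genes, 10 of 11 (90.9%, 58.7 to 99.8) had a peak inside or within 5 kb, 9 of 11 had one within the FDR limit, and 9 of 11 (81.8%, 48.2 to 97.7) had one inside.

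**Figure D1:**
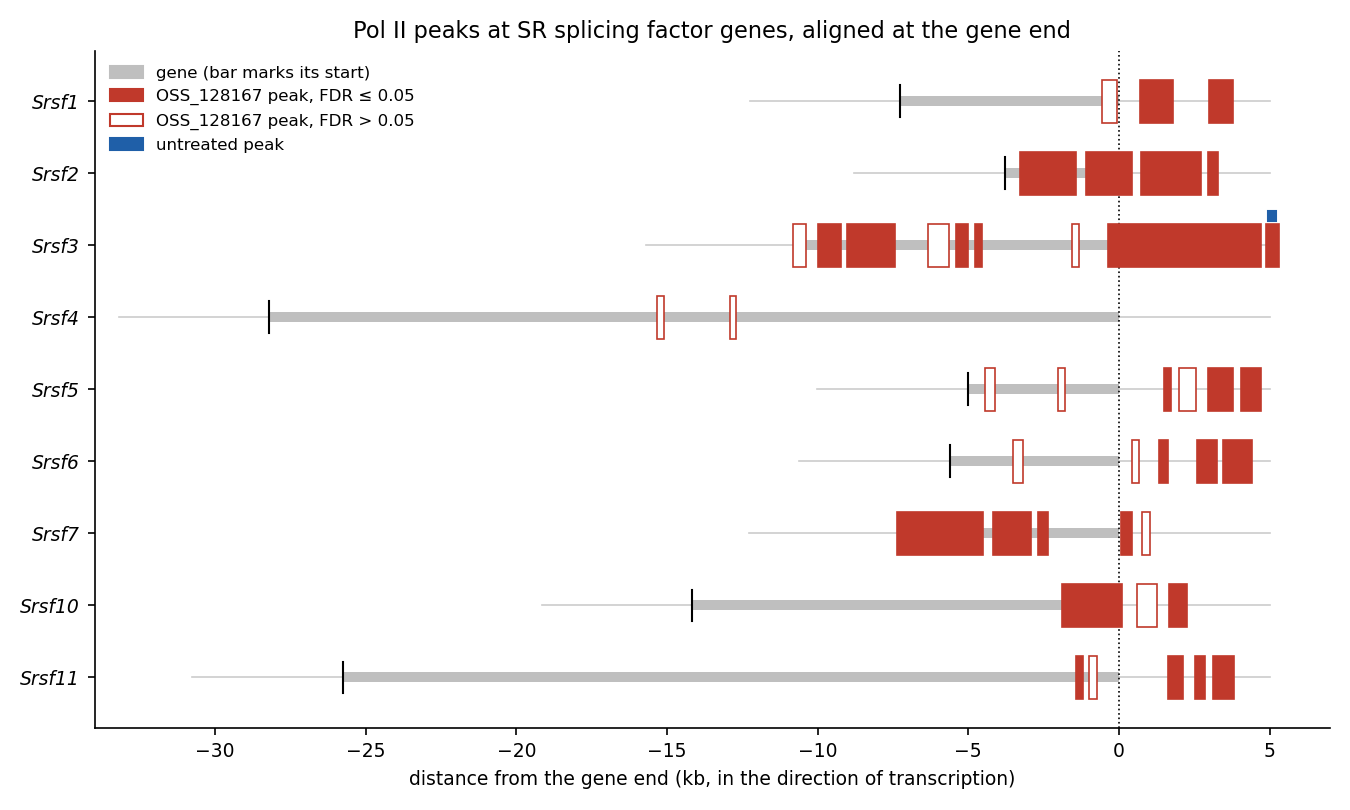
Peaks at each SR gene, drawn as distance in kb from the gene end in the direction of transcription (x axis), with 1 row per gene. Grey bars are genes, a black tick marks each gene start, red boxes are OSS_128167 peaks within the FDR limit, open boxes are OSS_128167 peaks above it, and the blue box is the 1 untreated peak. In 8 of 9 genes a filled box lies past the gene end, and in Srsf4 none does.

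The 42 peaks were longer in the median than all peaks of the OSS_128167 list, and a larger share met the FDR limit. Fold enrichment, p-value and FDR are the authors' values for each peak within its own list. The median length was 493.5 bp, against 278 bp over all 40748 peaks, and the median fold was 3.44 against 2.87. Of the 42 peaks 28 (66.7%) met the FDR limit, against 16.1% of the list. Peaks of the shortest length in that list, 226 bp, made up 6 of the 42 (14.3%) and 28.0% of the list. By place, 17 peaks lay inside a gene alone, 20 past its end alone, 3 over the gene end, 2 over the gene start, and 0 upstream alone.

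Peaks reached the promoter window of Srsf2, Srsf3 and Srsf7 and of none of the other 6 genes. This window spans 250 bases before to 50 after a RefSeq transcript start. Bases inside and upstream of a gene, and its bins, are counted from the gene boundary, which can lie before the transcript start. In Srsf2 the transcript start is at 116853094 and the boundary at 116853675, so its promoter peak counts as inside the gene. The 3 of 9 genes (33.3%, 7.49 to 70.1) compare with 2.62% of the 17492 protein-coding genes that have such a window. Among the 8171 of these with a peak inside or within 5 kb the share was 5.61%. Within the FDR limit the count was 2 (Srsf2 and Srsf7), against 1.47% of the 17492 genes. The peak covered 128 of the bases before the start in Srsf7, 109 in Srsf3 and 84 in Srsf2. The 250 bases before the start are shown for these 3 genes, and for Srsf5 and Srsf6, which had the largest downstream coverage among genes without a promoter peak. Sequences are from RefSeq (GRCm38.p6), written 5′ to 3′ on the gene's strand. Capitals mark matches on either strand to the TATA box (TATAAA), the CCAAT box, the GC box (GGGCGG), the E-box (CACGTG) and an ETS core (CGGAAG), and adjoining or overlapping matches merge into 1 run.
Srsf7, chr17:80207306-80207555, minus strand: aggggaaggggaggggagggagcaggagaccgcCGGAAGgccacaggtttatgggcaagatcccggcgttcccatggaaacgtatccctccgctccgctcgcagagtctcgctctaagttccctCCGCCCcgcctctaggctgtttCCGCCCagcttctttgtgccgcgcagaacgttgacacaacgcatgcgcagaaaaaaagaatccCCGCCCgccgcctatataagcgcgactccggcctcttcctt
Srsf3, chr17:29032410-29032659, plus strand: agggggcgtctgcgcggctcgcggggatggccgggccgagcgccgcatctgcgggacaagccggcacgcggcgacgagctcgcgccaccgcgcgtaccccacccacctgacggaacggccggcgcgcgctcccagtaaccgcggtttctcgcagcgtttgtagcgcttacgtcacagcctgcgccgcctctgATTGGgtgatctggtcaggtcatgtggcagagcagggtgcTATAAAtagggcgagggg
Srsf2, chr11:116853095-116853344, minus strand: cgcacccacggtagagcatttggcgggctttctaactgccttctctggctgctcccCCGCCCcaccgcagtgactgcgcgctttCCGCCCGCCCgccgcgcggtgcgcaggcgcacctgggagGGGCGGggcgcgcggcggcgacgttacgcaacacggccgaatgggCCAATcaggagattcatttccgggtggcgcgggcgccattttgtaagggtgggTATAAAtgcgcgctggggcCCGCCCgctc
Srsf5, chr12:80945249-80945498, plus strand: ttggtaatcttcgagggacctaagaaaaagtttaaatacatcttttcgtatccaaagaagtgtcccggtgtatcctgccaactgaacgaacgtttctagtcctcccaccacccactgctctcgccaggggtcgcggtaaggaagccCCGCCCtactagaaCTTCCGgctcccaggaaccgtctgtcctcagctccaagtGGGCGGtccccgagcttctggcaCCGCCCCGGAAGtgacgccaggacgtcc
Srsf6, chr2:162931258-162931507, plus strand: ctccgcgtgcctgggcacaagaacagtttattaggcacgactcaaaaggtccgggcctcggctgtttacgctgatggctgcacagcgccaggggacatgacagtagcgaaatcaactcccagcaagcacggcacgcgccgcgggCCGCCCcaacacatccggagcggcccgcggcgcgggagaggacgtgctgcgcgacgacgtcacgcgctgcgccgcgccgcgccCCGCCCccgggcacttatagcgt

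TATAAA occurred in the windows of Srsf2 and Srsf3 and of no other SR gene, while 14.8% of genes with a window hold it. The match lay 29 to 24 bases before the start in Srsf2 and 18 to 13 before it in Srsf3, under the promoter peak in both. CCAAT was found in Srsf1, Srsf2, Srsf3 and Srsf10 (4 of 9, against 42.3% of genes). GGGCGG was found in 8 of 9 SR genes, all but Srsf3, against 49.2%, and CGGAAG in Srsf4, Srsf5, Srsf7 and Srsf11, against 23.5%. CACGTG was found in 0 of 9, against 8.91%. These counts cover 12 windows, since Srsf4 has 3 and Srsf11 has 2, and their median GC content was 68.8%, against 56.3% over all 21263 windows. A match is a string of letters and not a shown binding site. Only exact strings were counted, so the similar tatataa before the start of Srsf7 was not.

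Srsf7, Srsf2 and Srsf3 carried the widest coverage inside the gene. Srsf7, whose product binds RNA through a zinc knuckle beside its recognition motif and shuttles to the cytoplasm, lies on chromosome 17 from 80200080 to 80207369. It was covered by OSS_128167 peaks over 60.1% of its length and by no untreated peak. Its leading peak of 2842 bp ran from 64 bp before the gene start to 2777 bp after it, with a fold of 7.79, an FDR of 8.91e-23 and a pileup of 43, the highest fold of the 42 peaks. A further 1245 bp (fold 4.10, FDR 5.46e-05) and 361 bp (3.65, FDR 0.00195) followed inside the gene. The last 10% of Srsf7 had no peak, and the first 10% was covered in full. Gemin6 begins 135 bp from the start of Srsf7 on the other strand and held no peak.

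Srsf2, which encodes a splicing activator long used as a marker of nuclear speckles, lies on chromosome 11 from 116849897 to 116853675. It had the highest covered share, 78.1% of 3779 bp in the OSS_128167 list, and no untreated peak. A peak of 1852 bp in its first part had a fold of 6.70 (FDR 2.24e-13), a peak of 1547 bp spanned its end (3.14, FDR 0.000665), and a peak of 2005 bp lay past the end (5.56, FDR 7.94e-10). Neighbouring genes share this signal. The 1852 bp peak also reached Mfsd11, which overlaps Srsf2 by 1465 bp on the other strand, and the 3 peaks at and past the end reached Mettl23, whose boundary lies 157 bp from that end on the other strand. ChIP-seq does not record strand, so these peaks cannot be assigned to 1 of the genes.

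Srsf3, which encodes the smallest SR protein, with roles in mRNA export and polyadenylation, lies on chromosome 17 from 29032660 to 29043372. It had 9 peaks in the OSS_128167 list, the most of the 9 genes, and a covered share of 42.6%. The promoter peak had a fold of 2.50 and an FDR of 0.141, while the peak 1680 to 3275 bp after the start had a fold of 4.72 (FDR 4.43e-07). The promoter peak also reached Gm16196, a long non-coding RNA gene on the other strand, 37 bp from the start of Srsf3. Of the 109 bases covered upstream of Srsf3, 73 lay in Gm16196, so this peak cannot be assigned to 1 of the genes. The longest peak at any SR gene, 5084 bp, began 366 bp before the end of Srsf3 and ran to 4717 bp past it (fold 6.75, FDR 4.87e-13). No other annotated gene lies in this 5 kb, of which 96.6% was covered.

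The 1 untreated peak at an SR gene also lay past the end of Srsf3. It was 259 bp long, began 4966 bp beyond the gene end, and had a fold of 2.26, a p-value of 0.00838 and an FDR of 1. It fell wholly under an OSS_128167 peak of 433 bp (fold 3.45, FDR 0.0229). This was the only SR gene at which peaks of the lists overlapped. Chromosome 17 held 116 untreated peaks, of which 1 met the FDR limit, and whether this density bears on the peak was not tested. Only 35 bp of it lay within the 5 kb window, and no untreated peak lay inside any of the 9 genes.

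The remaining 6 genes had lower covered shares inside, and no peak over the start. Srsf10 (chromosome 4, 135855752 to 135869908), a splicing repressor once dephosphorylated in heat shock, was covered over 13.4%, by 1 peak of 1997 bp that began 1903 bp before the gene end (fold 4.64, FDR 1e-05). Srsf5 (chromosome 12, 80945495 to 80950507) was covered over 10.9%, Srsf1 (chromosome 11, 88046499 to 88053757), the prototype of the family, over 7.08%, and Srsf6 (chromosome 2, 162931508 to 162937121) over 6.29%. No peak inside these 3 genes met the FDR limit, and the values were 0.0941 and 0.501 in Srsf5, 0.0526 in Srsf1 and 0.377 in Srsf6. Srsf11 (chromosome 3, 158010915 to 158036667) was covered over 1.84%, by 2 peaks in its last 10%, 1 of them with a fold of 5.37 (FDR 4.88e-08). Srsf4 (chromosome 4, 131873530 to 131901725), the longest at 28196 bp, was covered over 1.60%, by 2 peaks of 226 bp near its middle with folds of 3.34 (FDR 0.0897) and 3.42 (FDR 0.0714). The untreated value was 0 for all 6.

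The covered shares of the 9 genes thus ran from 1.60% to 78.1% with a median of 10.9%. The median over all 21887 protein-coding genes was 0 and their 90th percentile 2.23%. Among the 8171 with a strand and a peak inside or within 5 kb the median was 0.618%. For the 3172 of these in the length range of the SR genes it was 1.38%. With peaks within the FDR limit alone, the median of the SR genes was 0.893%, since Srsf1, Srsf4, Srsf5 and Srsf6 then had no covered base inside. Past the end, peaks within the limit still covered 1898 bp in Srsf1, 1762 bp in Srsf5 and 1897 bp in Srsf6. A peak inside the gene was found in 9 of 9 SR genes, against 34.4% of protein-coding genes (9 of 11 with Srsf9 and Srsf12, which had none inside), and in 5 of 9 (55.6%, 21.2 to 86.3) within the FDR limit, against 9.97%. The 2 genes longer than 20 kb, Srsf4 and Srsf11, had the lowest covered shares.

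**Figure D2:**
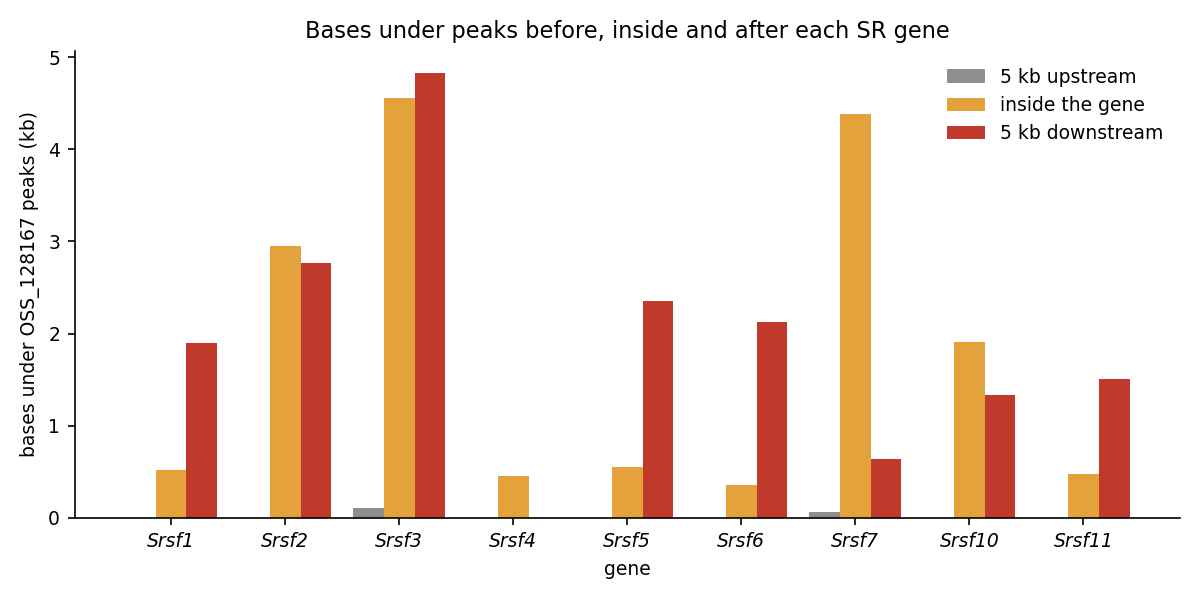
Bases under OSS_128167 peaks in kb (y axis) for each SR gene (x axis), in the 5 kb upstream (grey), inside the gene (orange) and in the 5 kb downstream (red). Upstream bars are visible at Srsf3 and Srsf7 alone, at 109 and 64 bp, while downstream bars reach 4828 bp at Srsf3.

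Past the gene end, 8 of 9 SR genes had a peak within 5 kb (88.9%, 51.8 to 99.7), against 20.4% of the 17492 protein-coding genes with a known strand and 21.8% of those in the length range. All 8 kept a downstream peak within the FDR limit, against 7.43% of protein-coding genes. With Srsf9 and Srsf12, 9 of 11 genes (81.8%, 48.2 to 97.7) had a downstream peak. Upstream, 2 of 9 had a peak base (22.2%, 2.81 to 60.0), against 8.01%. Of the 8171 protein-coding genes with a strand and a peak inside or within 5 kb, 43.7% had one downstream and 17.1% one upstream, so the excess downstream was also seen in the list as a whole.

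The downstream coverage differed between genes in its amount and its distance from the end. Srsf3 had 4828 bp covered, Srsf2 2763 bp, Srsf5 2350 bp, Srsf6 2123 bp, Srsf1 1898 bp, Srsf11 1506 bp, Srsf10 1335 bp and Srsf7 641 bp. In Srsf2, Srsf3 and Srsf10 a single peak ran across the gene end, and in Srsf7 the first downstream peak began 58 bp past it. In the other 4 the first downstream peak stood apart from the end, by 429 bp in Srsf6, 708 bp in Srsf1, 1491 bp in Srsf5 and 1640 bp in Srsf11. Srsf5 and Srsf6 had their highest folds well past the end. In Srsf5 a peak of 829 bp from 2950 bp past the end had a fold of 4.73 (FDR 9.46e-05), and in Srsf6 a peak of 968 bp from 3462 bp past the end had a fold of 5.32 (FDR 1.26e-06).

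Over all peaks, no SR gene had downstream peaks alone (0 of 9, against 8.7% of protein-coding genes with a strand). Within the FDR limit, Srsf1, Srsf5 and Srsf6 had peaks past the end and none inside. The share of protein-coding genes with this form at that limit was not computed. In 5 of 9 genes (Srsf1, Srsf3, Srsf5, Srsf6 and Srsf10) the peak of highest fold reached past the gene end, against 31.8% of the protein-coding genes with a peak. It lay at or near the start in Srsf2 and Srsf7. The downstream peaks of Srsf1 had folds of 2.96 (FDR 0.0163) and 3.20 (FDR 0.0258). Those of Srsf11 had folds of 5.16 (FDR 2.07e-05), 3.76 (FDR 0.0205) and 3.90 (FDR 0.0134).

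Part of the downstream signal lay inside neighbouring genes. Outside every other annotated gene, downstream peak bases remained at 8 of 9 SR genes, against 14% of protein-coding genes, and also at 8 of 9 within the FDR limit, against 5.2%. In Srsf1, Srsf3, Srsf6 and Srsf7 the 5 kb downstream held no other gene. In Srsf2 only 156 of the 2763 covered bases were free of Mettl23. In Srsf5 842 bp were free, and 1508 bp lay in Slc10a1, which encodes a bile acid transporter of hepatocytes, runs on the other strand, and held 2 further peaks beyond the window. In Srsf10 496 bp were free and 839 bp lay in Pnrc2, and in Srsf11 805 bp were free and 701 bp lay in Ankrd13c. Under peaks within the FDR limit, Srsf10 (93 bp), Srsf2 (156 bp) and Srsf5 (254 bp) had the fewest free bases of the 8 genes. Pnrc2 and Ankrd13c also run on the other strand. Ankrd13c had no peak outside the window. All 2930 bp of Pnrc2 lie inside the window past Srsf10, so peaks of Pnrc2 beyond it could not be looked for. The 5 kb past Srsf4 lay wholly inside the long non-coding RNA gene Gm12992, which held no peak.

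The 5 kb limit left out peaks that followed closely at 3 genes. The next OSS_128167 peak past the window began 5129 bp from the end of Srsf6 (fold 3.01, FDR 0.183), 5546 bp from that of Srsf3 (2.77, FDR 0.191) and 5644 bp from that of Srsf5 (2.26, FDR 0.716). The outermost peaks counted began 4890 bp past the end in Srsf3 and 4040 bp past it in Srsf5. At the other 6 genes the next downstream peak was at least 22392 bp away.

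**Figure D3:**
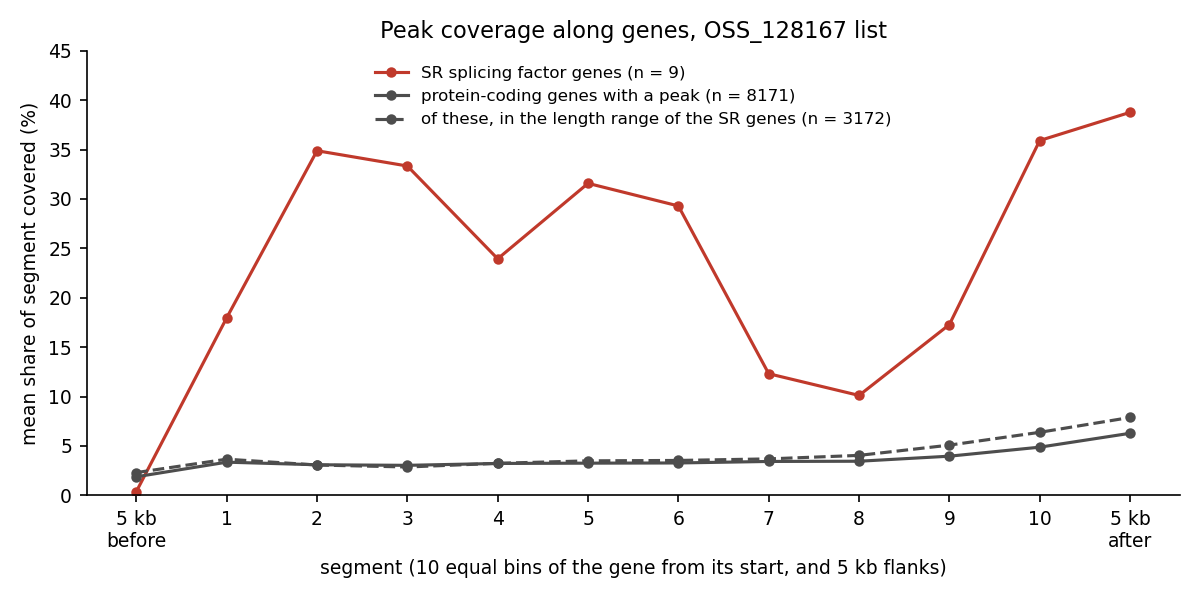
Mean share of each segment covered by OSS_128167 peaks in percent (y axis), over the 5 kb before the gene, 10 equal bins of the gene from its start, and the 5 kb after it (x axis). The 9 SR genes (red) go from 0.384% before the gene to 38.8% after it, and protein-coding genes with a peak (solid grey, n = 8171; dashed, the 3172 in the length range of the SR genes) from 1.88% to 6.28% and from 2.30% to 7.88%.

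Inside the gene, coverage of the SR genes had no single centre. In 10 equal bins from the start, mean coverage was lowest in bin 8 at 10.1%, and reached 34.9% in bin 2 and 35.9% in bin 10. The median was 0 in bins 1 to 4 and 7 to 9, 8.01% in bin 5, 5.19% in bin 6 and 18.4% in bin 10. Bin 10 was covered in full in Srsf10, over 99.8% in Srsf2, 70.8% in Srsf1, 34.3% in Srsf3 and 18.4% in Srsf11, and not at all in Srsf4, Srsf5, Srsf6 and Srsf7. The last bin held a peak in 5 of 9 genes and the first in 2 of 9. Among the 8171 protein-coding genes with a strand and a peak, the last bin held one in 25.3% and the first in 14.05%. For the 3172 of these in the length range of the SR genes, the values were 21.2% and 10.1%. The last bin thus held a peak more often than the first in the list as a whole too. The first 50% of the gene length held 55.8% of the covered bases of the SR genes, and 42.6% of those of all protein-coding genes with a peak. Without Srsf3 this share was 48.4%, and without Srsf7 it was 48.5%. By gene, all covered bases lay in the last 50% in Srsf1, Srsf10 and Srsf11, none did in Srsf6, and 24.6% did in Srsf7.

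Other splicing genes had downstream peaks in the OSS_128167 list too. Their lists had lower median covered shares than the SR genes, but the SR genes are short (median 7290 bp, against 13723 to 36680 bp in the other lists), and the difference was not tested. In bases under peaks inside the gene, the median was 547 bp for the SR genes, 839 bp for the hnRNP and PTB genes and 791 bp for the other regulators, and 397, 2.5 and 0 bp for the other SR and SR-related, the kinase and importer and the core spliceosome genes. Hnrnpa2b1 (6664 bp) and Rbm39 (6507 bp) had more bases covered inside than any SR gene, of which Srsf3 had the most at 4560 bp. These lists were compared with the same backgrounds of 46.7% for a peak inside or within 5 kb and 20.4% for a downstream peak. Among 12 other SR and SR-related genes, 11 had a peak inside or within 5 kb and 7 a downstream one, with a median covered share of 0.8501%. Rsrp1 was covered over 40.4% (highest fold inside 5.48, FDR 3.21e-07), Srrm2, a scaffold of nuclear speckles, over 10.7% (5.34, FDR 2.36e-09), and Srrm1 over 3.90% (3.76, FDR 0.0205). Srsf12, an SR gene outside the set, had no peak. Srsf9, likewise outside it, had none inside and 584 bp covered downstream.

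All 10 genes for SR protein kinases and the importer Tnpo3 had a peak inside or within 5 kb, 9 of them downstream and 0 upstream. Their median covered share was 0.0203%. Clk3, a kinase of SR proteins, was covered over 21.1% (3.95, FDR 0.012), and Srpk2 over 1.33% (4.81, FDR 7.01e-05). Clk2 had its leading peak at its end (3.90, FDR 0.00116), with 1032 bp downstream. Srpk2 also had an untreated peak inside (fold 2.97, FDR 1).

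The hnRNP proteins bind pre-mRNA and often oppose SR proteins at splice sites. Of 25 hnRNP and PTB genes, 24 had a peak and 22 a downstream one, with a median covered share of 3.73%. The peak of highest fold in Hnrnpa2b1, covered over 69.3%, had 5121 bp (8.88, FDR 1.86e-25), and 4612 bp were covered downstream. It had 2 untreated peaks within 5 kb and none inside. Hnrnpd (5.35, FDR 1.14e-06), Hnrnpu (4.88, FDR 1.79e-06) and Hnrnpa3 (4.64, FDR 1e-05) followed, and Pcbp1 had no peak. Ptbp2 had 1 untreated peak inside (3.81, FDR 1).

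Of 33 core spliceosome genes, 25 had a peak and 18 a downstream one, with a median covered share of 0. The leading folds inside were 4.66 in Prpf19 (FDR 6.4e-05), 3.91 in Eftud2 (FDR 0.0052), 3.75 in U2af1 (FDR 0.00547) and 3.61 in Sf3a3 (FDR 0.0212), while U2af2 and Sf3b2 had no peak. Of 20 other splicing regulators, 18 had a peak and 14 a downstream one, with a median of 1.18%. Sfpq (5.30, FDR 2.85e-06), Rbm39 (4.58, FDR 1.26e-05), Matr3 (4.34, FDR 0.000699) and Elavl1 (3.86, FDR 0.00379) led, and Rbmx and Esrp1 had no peak. Celf2 and Rbfox2 each had 1 untreated peak inside (fold 3.26 and FDR 1 in both). At an FDR of at most 0.05 a peak inside or within 5 kb was found in 8 of 12 other SR and SR-related genes, 7 of 10 kinase and importer genes, 18 of 25 hnRNP and PTB genes, 16 of 33 core spliceosome genes and 12 of 20 other regulators, against 15.6% of protein-coding genes.

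**Figure D4:**
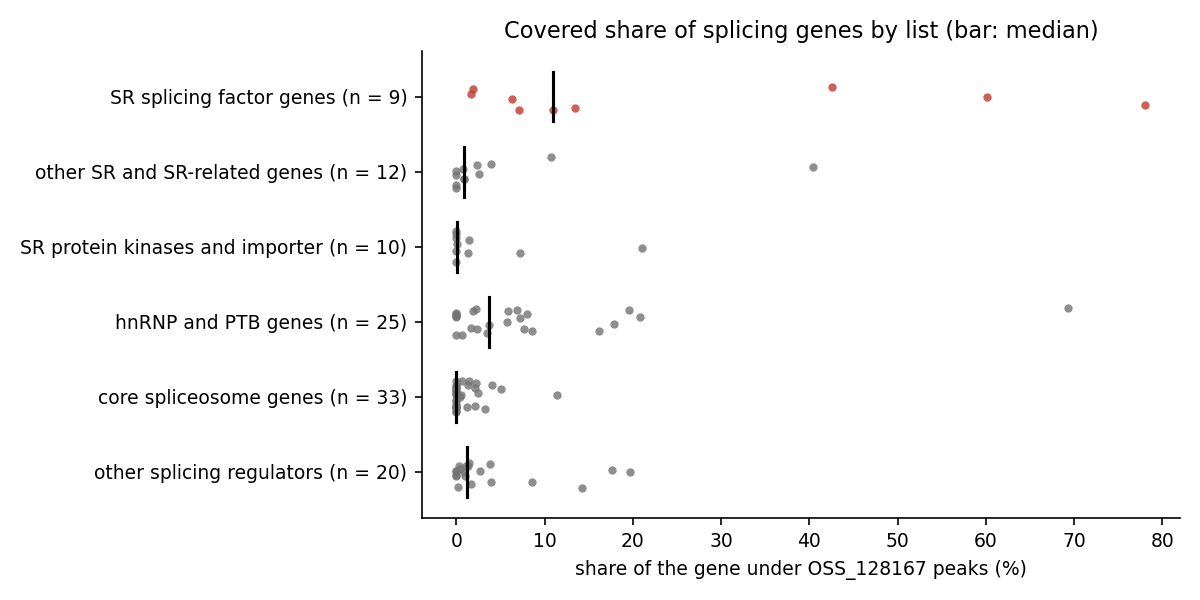
Share of each gene under OSS_128167 peaks in percent (x axis) for 6 lists of splicing genes (rows), with 1 point per gene and a black bar at the median. The SR splicing factor genes (red) have a median of 10.9%, with Srsf2, Srsf7 and Srsf3 at 78.1%, 60.1% and 42.6%, and Hnrnpa2b1 is the point at 69.3% in the hnRNP list.

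Over the 2 libraries, the splicing genes whose covered shares came nearest to the medians of the SR genes (10.9% and 0) were Srrm2, U2af1 and Matr3. Their summed absolute differences were 0.179, 0.482 and 2.31 percentage points. U2af1, which recognises the end of the intron, was covered over 11.4% and Matr3 over 8.61%.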

How the data were processed

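The submitters' processing notes name fastp, BWA and mm10. Which peak caller and thresholds were used, and how the inputs entered, is not given in the sources used here. The authors deposited 1 list per library. Per the file headers, each peak carries its position and length, its fold enrichment as a ratio, p-value, FDR and pileup signal. The authors' pileup takes whole units only in the OSS_128167 list, so it was not compared between lists.

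Gene boundaries are those of RefSeq on GRCm38.p6 (mm10), and strand from the RefSeq promoter table, which matched 17492 of 21887 protein-coding genes and all 9 SR genes. Upstream and downstream follow that strand. Overlap meant at least 1 bp. Covered share is the percent of gene bases under peaks. The exact intervals are Clopper-Pearson at 95%. The design asked for protein lengths and dipeptides, which were not used here. The members, gene lists and the rule for named genes were chosen with earlier results of these data known. That rule took, from each list, up to 4 genes of highest fold inside within the FDR limit, up to 2 with no peak, those with an untreated peak inside, and the 3 nearest in covered share; Srsf9 and the Hnrnpa2b1 flank were added after their values were seen. Interval counts were tested on simulated data. Versions were Python 3.11.15, pandas 2.3.3, numpy 2.4.6, matplotlib 3.10.9 and scipy 1.17.1.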

Additional observations from a re-analysis of the deposited data

How the results depend on the processing

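The count of SR genes with a peak in the OSS_128167 list was 9 within 1 kb, inside the gene, by peak centre and with at least 50% of the peak in the window, and 8 within the FDR limit. In the untreated list the 1 gene, and its 1 peak, fell to 0 within 1 kb, inside the gene and within the FDR limit, and the gene also to 0 by peak centre and with 50% of the peak required, since that peak lay at the edge of the window. The 42 OSS_128167 peaks became 23 when joined across gaps of up to 500 bp, 22 inside the gene, and 28 within 1 kb, and also 28 within the FDR limit. The median covered share of 10.9% became 0.893% within the FDR limit, 8.72% with 1 kb added on each side and 15.9% with 5 kb, and ran from 8.996% to 12.2% when each gene was left out in turn. The untreated median was 0 in each of these settings. The share of covered bases in the first 50% of the gene ran from 48.4% to 63.3% when each gene was left out, and was 55.5% within the FDR limit. The 8 genes with a downstream peak remained 8 at that limit, by peak centre and outside other annotated genes, alternatives added after the data were seen, as was leaving out each gene for the share in the first 50%. With Srsf9 and Srsf12 added to the set after the data were seen, 10 of 11 genes had a peak and 9 a downstream one. Outside other annotated genes, also added then, the 17444 bp under peaks downstream became 11789 bp and the 16140 bp inside became 15172 bp. The overlap of the lists at 1 gene held when 50% of the shorter peak was required. Protein-coding genes with a peak were 46.7% in the OSS_128167 list, 39.2% in the length range of the SR genes and 15.6% within the FDR limit, and in the untreated list 2.71%, 1.35% and 0.142%. No paired analysis was possible because there was 1 library per condition. Depth is unknown, so a gene without a listed peak may hold Pol II below the calling threshold.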

Other observations

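Outside the 9 SR genes, 25 of the 100 other splicing genes had an OSS_128167 peak within 5 kb past the gene end and none inside the gene, against 8.7% of protein-coding genes with a strand. The 8.7% is 1521 of 17492 genes, of which 8171 had a peak inside or within 5 kb. Each list of splicing genes had such a peak in a larger share than the 46.7% of all protein-coding genes. That difference enters the contrast, and the share among genes with a peak was not computed. Over all peaks none of the 9 SR genes had this form, which was counted after the values were seen. Srsf1, Srsf5 and Srsf6 did have it within the FDR limit, at which the other splicing genes were not counted. The 25 comprised 10 of 33 core spliceosome genes (such as Sf1, Snrpb and Prpf31), 5 of 25 hnRNP and PTB genes (Hnrnpa0, Hnrnpdl, Hnrnph2, Hnrnph3 and Hnrnpll), 5 of 10 kinase and importer genes (Srpk1, Clk1, Clk4, Prpf4b and Tnpo3), 3 of 12 other SR and SR-related genes (Srsf9, Tra2a and Luc7l3) and 2 of 20 other regulators (Tial1 and Nono). Clk1, a kinase of SR proteins, had 3184 bp covered past its end, Tra2a 1016 bp and Luc7l3 811 bp.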
